A study of Mus musculus with 138 samples.

Results

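Zic1, Zic4, Lmx1b, En1, Alx1, Alx4, Tfap2b, Foxc1 and Irx5 encode transcription factors known for patterning the skull vault, and their RNA was followed here through the calvarial sutures of wild-type mouse embryos. The 9 genes were chosen by name from the 55487 genes of the deposited count tables. All 9 were among the 19768 genes that passed the filter on low counts.

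The skull vault is built from 2 embryonic sources: neural crest, which forms most of the frontal bones, and head mesoderm, which forms the parietal bones. Transcription factors laid down in these tissues give each bone its position and keep the mesenchyme between the bones undifferentiated, while the bones grow at their edges, the osteogenic fronts (OFs). Zic1 and Zic4 are zinc finger factors related to the GLI mediators of hedgehog signalling, and Lmx1b, En1, Alx1, Alx4 and Irx5 carry homeodomains. Tfap2b is an AP-2 factor of neural crest derivatives, and Foxc1 is a forkhead factor of head mesenchyme and of the meninges. Several of these genes are known from inherited skull defects, among them ZIC1 in craniosynostosis, ALX4 in parietal foramina and ALX1 in frontonasal dysplasia.

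Regions were cut by laser from frozen sections of C57BL/6J embryos at E16.5 and E18.5. From each of the coronal, frontal, sagittal and lambdoid sutures, the suture mesenchyme (SM) and the bordering OFs were taken: frontal (FR) and parietal (PA) in the coronal suture, FR in the frontal suture, PA in the sagittal suture, and interparietal (IP) and PA in the lambdoid suture. This gave 20 groups of 5 libraries, 100 libraries from 40 embryos, each embryo giving the regions of 1 suture. RNA from these small samples was amplified before the libraries were made. A second library of 18 coronal samples and 16 complete-suture control libraries at E18.5 were also deposited, as were 4 single-cell libraries of pooled coronal sutures, 2 at each age. The tissue dissected for single cells took in bone beside the suture as well as the suture itself. No genotype, treatment or transgene separated the groups.

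The first libraries held between 7305627 and 34518477 counted reads, with a median of 14244957. The coronal E16.5 libraries stood apart: libraries of 1 group correlated with each other at a mean r of 0.838 to 0.885. The frontal E18.5 FR library of replicate 5 also stood apart, with a mean r of 0.877 to its group. Since each embryo gave 1 suture, a difference between sutures is also one between embryos. Depth differed with suture too. At E16.5 the group medians were 24269409 to 29443844 reads in the coronal and 8519910 to 9728218 in the lambdoid suture. Suture cannot be told apart from any difference in how the libraries of each suture were made. Osteoblast markers, such as Ibsp and Bglap, were found in every captured group, with a summed level of 9 genes from 6939.7 to 61755 CPM (counts scaled to a common library total), and epidermal keratins summed to at most 9.20 CPM in any library.

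In the GRCm38 gene annotation the members lie at chr9:91358058-91365810 (Zic1), chr9:91362413-91389348 (Zic4), chr2:33560965-33640511 (Lmx1b), chr1:120602418-120607992 (En1), chr10:102998707-103030215 (Alx1), chr2:93642384-93681339 (Alx4), chr1:19208914-19238576 (Tfap2b), chr13:31806633-31812476 (Foxc1) and chr8:92357625-92376286 (Irx5). Zic1 and Zic4 are neighbours on opposite strands, and the annotation gives them 60 exon bases in common, 1.05% of the exon bases of Zic1 and 0.58% of those of Zic4. The counting did not use strand, so reads from those bases cannot be assigned. Their RefSeq start sites are 3204 bases apart. The 300 bases around each start (RefSeq, GRCm38.p6; 250 before and 50 after the start) are shown because these 2 genes had the highest correlation of group means of all pairs of members. Capitals mark the GC box letters GGGCGG or their reverse complement.

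Zic1, chr9:91365719-91366018, minus strand: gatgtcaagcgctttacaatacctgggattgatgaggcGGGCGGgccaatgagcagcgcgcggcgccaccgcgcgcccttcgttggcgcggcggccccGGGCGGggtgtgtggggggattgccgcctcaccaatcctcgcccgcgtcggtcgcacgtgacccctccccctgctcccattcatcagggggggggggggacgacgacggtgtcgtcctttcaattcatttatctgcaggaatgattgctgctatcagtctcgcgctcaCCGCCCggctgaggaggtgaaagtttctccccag

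Zic4, chr9:91368722-91369021, plus strand: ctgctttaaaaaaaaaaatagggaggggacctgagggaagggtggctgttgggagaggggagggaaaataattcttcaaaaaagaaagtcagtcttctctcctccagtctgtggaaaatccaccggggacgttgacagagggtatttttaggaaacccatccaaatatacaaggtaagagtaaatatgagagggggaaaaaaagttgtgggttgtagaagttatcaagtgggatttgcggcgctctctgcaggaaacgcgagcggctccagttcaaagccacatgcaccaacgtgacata

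The Zic1 window was 65.3% G and C and held 3 GC boxes and 1 E-box (CANNTG). The Zic4 window was 46.0% G and C and held no GC box and 2 E-boxes. Of 32851 RefSeq promoters of this length, 35.7% held GGGCGG and 72.3% held CANNTG on either strand, and the median G and C content was 52.7%. Of the other members, Lmx1b, En1, Tfap2b and Foxc1 had an entry, with 65.7%, 57.0%, 48.3% and 67.3% G and C. No window of these 6 genes held the homeodomain letters TAATTA or the TATA box letters TATAAA, which 5.29% and 13.6% of all promoters held.

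The 20 groups differed in the level of these genes by very unequal amounts. Averaged over the groups and scaled per kilobase of exon, Zic1 was the most abundant member with 18.7 RPKM, the CPM divided by the exon length in kilobases, followed by Alx4 with 14.2. Lmx1b, Irx5, Zic4, En1, Alx1 and Foxc1 stood between 3.55 and 7.35 RPKM, and Tfap2b at 1.99.

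Zic1 was highest in the sagittal SM at E16.5, at 321.75 ± 20.92 CPM (SD, n = 5), and lowest in the coronal FR front at E16.5, at 17.71 ± 7.66 CPM. In the order of the 20 group means, 17 of 19 neighbouring pairs of groups overlapped in their libraries. The other 2 steps were between the E18.5 sagittal SM and the E18.5 lambdoid SM, and between the E16.5 lambdoid SM and the E16.5 frontal SM. Zic4 ran from 181.82 ± 7.69 CPM in the E18.5 lambdoid SM to 3.26 ± 4.21 CPM in the E16.5 coronal FR front, and Lmx1b ran from 79.99 ± 16.27 CPM in the E18.5 lambdoid SM to 4.13 ± 0.89 CPM in the E18.5 coronal PA front. En1 was highest in the sagittal suture, with 27.56 ± 7.00 CPM in its SM at E16.5 and 28.68 ± 5.25 CPM at E18.5, and at most 15.55 ± 7.54 CPM in a mean of any other suture.

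Alx1 was highest in the coronal SM at E18.5, at 98.55 ± 19.17 CPM, and lowest in the lambdoid PA front at E18.5, at 1.04 ± 0.58 CPM. Foxc1 and Tfap2b were both highest in the frontal SM at E16.5, at 59.90 ± 8.77 and 80.81 ± 17.99 CPM. Irx5 was highest in the coronal PA front at E16.5, at 54.65 ± 16.79 CPM, a rank that the second libraries of that group did not hold, with a mean of 14.67 CPM. Alx4 was the most even member, with group means from 58.59 to 134.92 CPM, a 2.30-fold range. For En1, Alx1, Alx4, Lmx1b, Foxc1, Irx5 and Tfap2b, every group overlapped its neighbour in the order of means, and for Zic4 a single step, from the E16.5 lambdoid SM to the E16.5 sagittal PA front, did not.

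**Figure D1:**
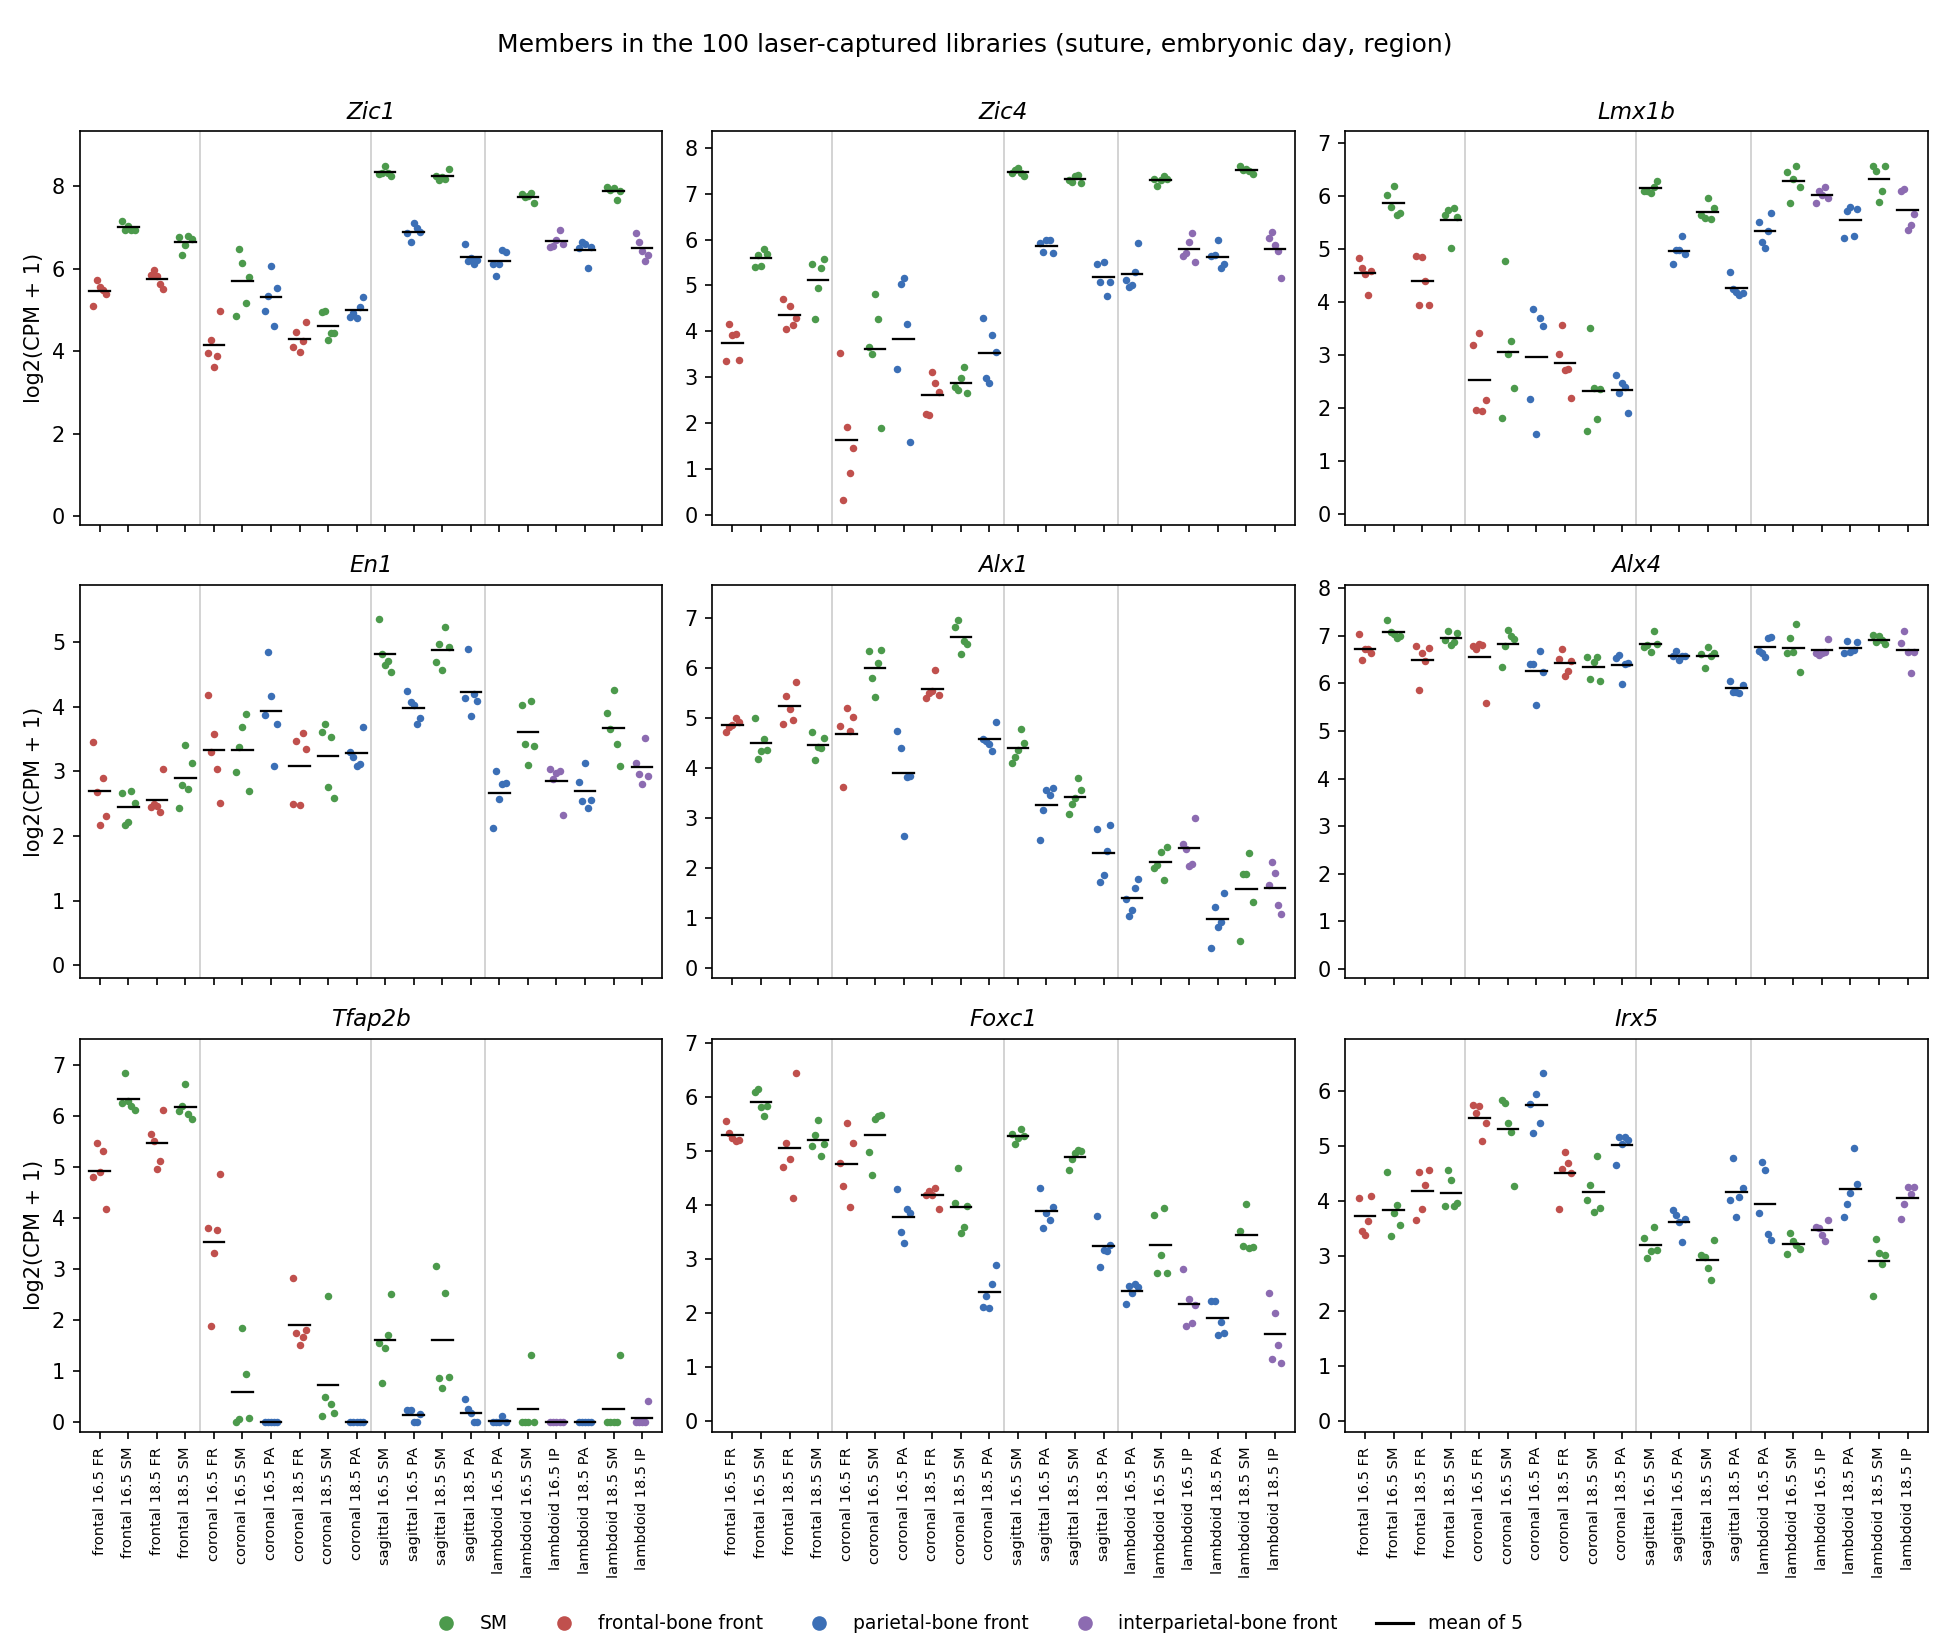
Level of each member, as log2(CPM + 1), in the 100 first libraries, with suture, age and region along the horizontal axis; each point is 1 library and each bar is the mean of 5. Zic1 and Zic4 are highest in the sagittal and lambdoid SM, Lmx1b in the lambdoid SM, Alx1 in the coronal SM and Tfap2b in the frontal suture.

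The frontal and parietal fronts of the coronal suture came from the same embryos, and the test did not pair them. Tfap2b and Foxc1 were higher in the FR front at both ages and Zic1 was lower at both, while Alx1 was higher at E18.5 and Zic4 was lower at E16.5. At E16.5, 4 of 9 members passed the test, in a comparison in which 14.4% of all genes tested did, and at E18.5 again 4 of 9, beside 5.44% of all genes. The median log2 fold change of the members was -0.26 at E16.5 and 0.03 at E18.5, against 0.0 and -0.04 for all genes tested. In bulk samples of this kind, fewer cells of a type and less RNA per cell cannot be told apart.

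Tfap2b divided the fronts most completely. In the E16.5 FR front its 5 libraries held 2.66, 8.95, 12.49, 12.95 and 27.8 CPM, and at E18.5 they held 1.84, 2.15, 2.34, 2.5 and 6.08 CPM. No read of Tfap2b was counted in any of the 10 PA libraries. With 1156 reads against 0 over the E16.5 groups, Tfap2b was at least 450.6-fold higher in FR when the PA group is set to a floor of 3 reads (0.029 CPM), and with 352 reads against 0 at E18.5 it was at least 108.8-fold higher (adjusted p = 4.59e-08 and 1.36e-05, edgeR's quasi-likelihood test). The second libraries of these fronts carry the embryo, region and replicate labels of the first. They held 8.95 to 13.88 CPM of Tfap2b in FR at E16.5, 0.55 to 1.40 CPM in FR at E18.5 and 0 in all 6 PA libraries.

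Foxc1 in the FR front at E18.5 held 14.24, 17.4, 17.41, 18.3 and 18.92 CPM, and in the PA front 3.3, 3.35, 3.97, 4.83 and 6.4 CPM. The ranges were apart, and the log2 fold change was 1.98 ± 0.29 (SE, adjusted p = 7.78e-07). At E16.5 the FR libraries ran from 14.7 to 45.03 CPM and the PA libraries from 8.9 to 18.79 CPM. These overlapped, though FR was higher in 5 of 5 embryos (log2 fold change 1.09 ± 0.28, adjusted p = 0.00438), and without replicate 3 the adjusted p was 0.117.

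Alx1 held 41.39, 43.26, 44.54, 45.55 and 61.56 CPM in the E18.5 FR front and 19.18, 21.42, 22.3, 23.06 and 29.18 CPM in the PA front, with no overlap. Its log2 fold change was 1.04 ± 0.28 (adjusted p = 0.0115), and without replicate 4 it was 0.92 (adjusted p = 0.122). At E16.5 the difference was 0.76 (adjusted p = 0.0524).

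Zic1 ran the other way. At E18.5 the FR libraries held 14.74, 16.22, 17.83, 20.99 and 25.16 CPM and the PA libraries 27.11, 27.4, 29.44, 32.86 and 38.5 CPM, every FR library below every PA library (log2 fold change -0.71 ± 0.19, adjusted p = 0.011). At E16.5 the FR libraries held 11.2 to 30.61 CPM and the PA libraries 23.35 to 65.71 CPM, lower in FR in 5 of 5 embryos (log2 fold change -1.21 ± 0.19, adjusted p = 8.88e-06). The E18.5 call was lost when library totals replaced the TMM scaling (-0.48, adjusted p = 0.157) and without replicates 1, 3 or 4 (adjusted p = 0.0531, 0.0666 and 0.0937).

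Zic4 in the E16.5 FR front held 0.26, 0.9, 1.76, 2.77 and 10.59 CPM and in the PA front 2, 8.08, 17, 31.55 and 35.01 CPM. The libraries overlapped, with FR lower in 4 of 5 embryos (log2 fold change -2.54 ± 0.40, adjusted p = 8.9e-06). Replicate 1 was the exception, and without it the log2 fold change was -3.89. Leaving out replicate 2 instead gave -1.96, and the call stayed past the threshold without any 1 replicate (adjusted p of at most 0.00222). At E18.5 the difference of -1.09 ± 0.38 missed the threshold (adjusted p = 0.0735).

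En1, Lmx1b, Irx5 and Alx4 did not pass at either age. En1 differed by -0.67 at E16.5 (adjusted p = 0.106), Lmx1b by 0.66 at E18.5 (0.305), Irx5 by -0.51 at E18.5 (0.259), and Alx4 by 0.32 at E16.5 (0.169). Fitted on the coronal E16.5 libraries by themselves, none of the 4 calls of that age passed: adjusted p was 0.08 for Tfap2b and 0.763 for Zic1, Zic4 and Foxc1. The E18.5 Zic1 call was also lost in such a fit (adjusted p = 0.0695).

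The 2 coronal fronts also differed in markers of other cells. At E16.5 the macrophage markers summed to 68.7 to 87.1 CPM in FR and 89.6 to 117.1 CPM in PA. At E18.5 the 5 suture mesenchyme markers summed to 1743.4 to 2080.2 CPM in FR and 1093.3 to 1594.4 CPM in PA. At that age all 5 pericyte markers were found in both, summing to 323.3 to 821.6 CPM in FR and 66.9 to 160.7 CPM in PA. The 6 endothelial markers summed to 158.9 to 377.3 CPM in FR and 54.1 to 95.4 CPM in PA, and the 6 dura markers to 49.7 to 121.0 and 22.6 to 57.1 CPM. The 9 osteoblast markers summed to 14941 to 36668 CPM in FR and 31076 to 58875 CPM in PA. Their part in the differences of the members was not tested.

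None of the 9 members passed the test of a changed FR less PA difference between the ages, beside 5.86% of all genes. At an unadjusted p under 0.05, 3 members did, Lmx1b, Zic4 and Foxc1. DESeq2 and limma-voom also called none. Lmx1b passed with the second coronal libraries in place of the first (2.01, adjusted p = 0.0025).

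The same fronts were then compared across sutures. FR fronts of the coronal and frontal sutures, set against PA fronts of the coronal, sagittal and lambdoid sutures, had higher Alx1, Foxc1 and Tfap2b and lower Zic1, Zic4 and En1 at both ages, and lower Lmx1b at E16.5. This was 7 of 9 members at E16.5 and 6 of 9 at E18.5, beside 28.8% and 32.7% of all genes. These comparisons share the coronal libraries with the comparison within the coronal suture. The SE and p-value of such averages over groups rest on the spread of libraries within groups. They do not measure the spread between fronts of the same bone.

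Alx1 stood at 47.26 and 37.69 CPM in the coronal and frontal FR fronts at E18.5, and at 23.03, 4.23 and 1.04 CPM in the coronal, sagittal and lambdoid PA fronts. The log2 fold change was 3.17 ± 0.19 (adjusted p = 6.15e-25), and 2.14 ± 0.18 at E16.5 (adjusted p = 2.77e-16). Without the coronal suture these were 4.19 and 2.90. The coronal PA front was thus the PA front with the most Alx1, with none of its 5 libraries below 19.18 CPM and no sagittal or lambdoid PA library above 6.31 CPM at that age.

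Foxc1 was at 17.25 and 38.20 CPM in the E18.5 FR fronts of the coronal and frontal sutures and at 4.37, 8.77 and 2.82 CPM in the PA fronts of the coronal, sagittal and lambdoid sutures. Its log2 fold change was 2.43 ± 0.18 (adjusted p = 2.48e-19), and 1.83 ± 0.18 at E16.5 (adjusted p = 8.28e-14). The frontal FR mean rested partly on replicate 5, at 86.14 CPM against 16.63 to 34.89 CPM in the other 4, and without that library the E18.5 value was 2.15. That library also held 3689 CPM of the 5 ectocranial mesenchyme markers against 985.6 to 1525 CPM in the other 4, and 4091 CPM of the 5 suture mesenchyme markers against 1333 to 1745 CPM. Its osteoblast, proliferation and pericyte markers summed to 44936, 1921 and 327.8 CPM, against at most 37034, 1094 and 182.9 CPM in the other 4. Its TMM factor was 0.6036, against 0.9812 to 1.137 in the other 4. The 6 dura mater markers summed to 65.2 CPM in that library, within the 51.2 to 101.1 CPM of the other 4. Between fronts the dura mater markers differed as well. At E18.5 they summed to 49.7 to 121 CPM in the FR fronts, 24.8 to 43.2 CPM in the sagittal PA and the lambdoid PA and IP fronts, and 22.6 to 57.1 CPM in coronal PA. At E16.5 frontal FR was at 91 to 153.5 CPM against 32.4 to 53.8 CPM in the sagittal and lambdoid fronts, while coronal FR (29.5 to 81.9 CPM) and PA (17.1 to 62.7 CPM) overlapped. Their part in the Foxc1 difference was not tested.

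Tfap2b in the frontal FR front held 17.03, 26.72, 28.73, 38.84 and 42.87 CPM at E16.5 and 30.12, 33.42, 44.69, 49.19 and 68.31 CPM at E18.5. The sagittal PA libraries held at most 0.36 CPM and the lambdoid PA libraries at most 0.09 CPM. Every FR library of either suture was above every PA library (adjusted p = 9.3e-18 at E16.5 and 3.67e-16 at E18.5).

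Zic1 was lower in FR than in PA fronts by a log2 fold change of -1.35 ± 0.13 at E16.5 and -0.90 ± 0.12 at E18.5 (adjusted p = 1.39e-14 and 7.38e-09). Zic4 was lower by -2.43 ± 0.27 and -1.41 ± 0.25 (7.66e-12 and 4.28e-06). En1 was lower by -0.52 ± 0.19 and -0.63 ± 0.19 (0.0323 and 0.00814), and both En1 calls were lost when some single replicates were left out, at adjusted p of up to 0.265 and 0.0605. Lmx1b was lower by -0.97 ± 0.22 at E16.5 (0.000352), while -0.37 at E18.5 missed the threshold (0.185). These averages did not hold between all single fronts: the frontal FR front lay above the coronal PA front in Zic1 at E18.5 (44.08 to 61.67 against 27.11 to 38.50 CPM) and in Lmx1b at E16.5 (16.58 to 27.57 against 1.86 to 13.63 CPM), and in Zic4 at E18.5 by its mean (19.66 against 11.37 CPM), values that were not tested. Without replicate 1 the E16.5 value of Zic4 was -3.02, and without the coronal suture it was -1.83. Without that suture the E16.5 value of Lmx1b was -0.58, and the E18.5 values were -1.01 for En1 and -0.60 for Zic1, all past the threshold.

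Against the lambdoid IP front, which lies behind the parietal bones, the FR fronts were higher in Alx1, Foxc1 and Tfap2b and lower in Zic1, Zic4 and Lmx1b at both ages. This was 7 of 9 members at E16.5, beside 26.3% of all genes, and 6 of 9 at E18.5, beside 18.9%. For Lmx1b the log2 fold change was -2.54 ± 0.27 at E16.5 and -2.20 ± 0.27 at E18.5 (adjusted p = 5.46e-12 and 1.11e-09), with IP libraries from 57.61 to 70.79 CPM at E16.5 and FR libraries of the frontal suture from 16.58 to 27.57 CPM. The coronal FR libraries held less still, 2.86 to 9.58 CPM, and without the coronal suture the values were -1.45 and -1.31. Whether this difference of Lmx1b exceeds that from the PA fronts was not tested.

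Alx1 in the E18.5 IP front held 1.11, 1.4, 2.17, 2.73 and 3.34 CPM, and FR less IP gave a log2 fold change of 4.29 ± 0.32 (adjusted p = 2.17e-19). Foxc1 differed by 3.5 ± 0.31 (5.36e-16) and Zic4 by -2.46 ± 0.31 (1.74e-09). Without the coronal suture Foxc1 was at 4.12 and Zic4 at -1.47, and Zic1 went from -1.50 to -0.72. At E16.5, without that suture, Zic4 went from -3.10 to -2.04 and Zic1 from -1.87 to -1.17. All of these stayed past the threshold. Irx5 was higher in FR at E16.5 (1.23 ± 0.23, adjusted p = 2.1e-05), but not without the coronal suture (0.35, adjusted p = 0.324).

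Between the IP and PA fronts of the lambdoid suture a single member passed the test. Alx1 was higher in IP at E16.5, with 3.13, 3.26, 4.19, 4.58 and 7.04 CPM against 1.07, 1.23, 1.62, 2.05 and 2.43 CPM in PA, and the ranges were apart (log2 fold change 1.38 ± 0.33, adjusted p = 0.023). This was 1 of 9 members beside 0.486% of all genes, and it was lost with limma-voom (adjusted p = 0.788) and when any replicate was left out (0.0631 to 0.211). At that age 4 members had an unadjusted p under 0.05, and 3 had ranges apart. Besides Alx1, Zic1 (101.11 against 72.36 CPM) and Lmx1b (64.06 against 39.76 CPM) were apart, higher in IP in 5 of 5 embryos. Irx5 (10.18 against 15.87 CPM) was lower in IP, with overlap. At E18.5 none of 9 passed with edgeR, beside 0.0101% of all genes. Alx1 was then at an unadjusted p of 0.00685, the only member under 0.05, with a log2 fold change of 1.03. No member passed the test of a changed IP less PA difference between the ages, beside 0.0% of all genes, of which 466 had an unadjusted p under 0.05, and no member had.

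**Figure D2:**
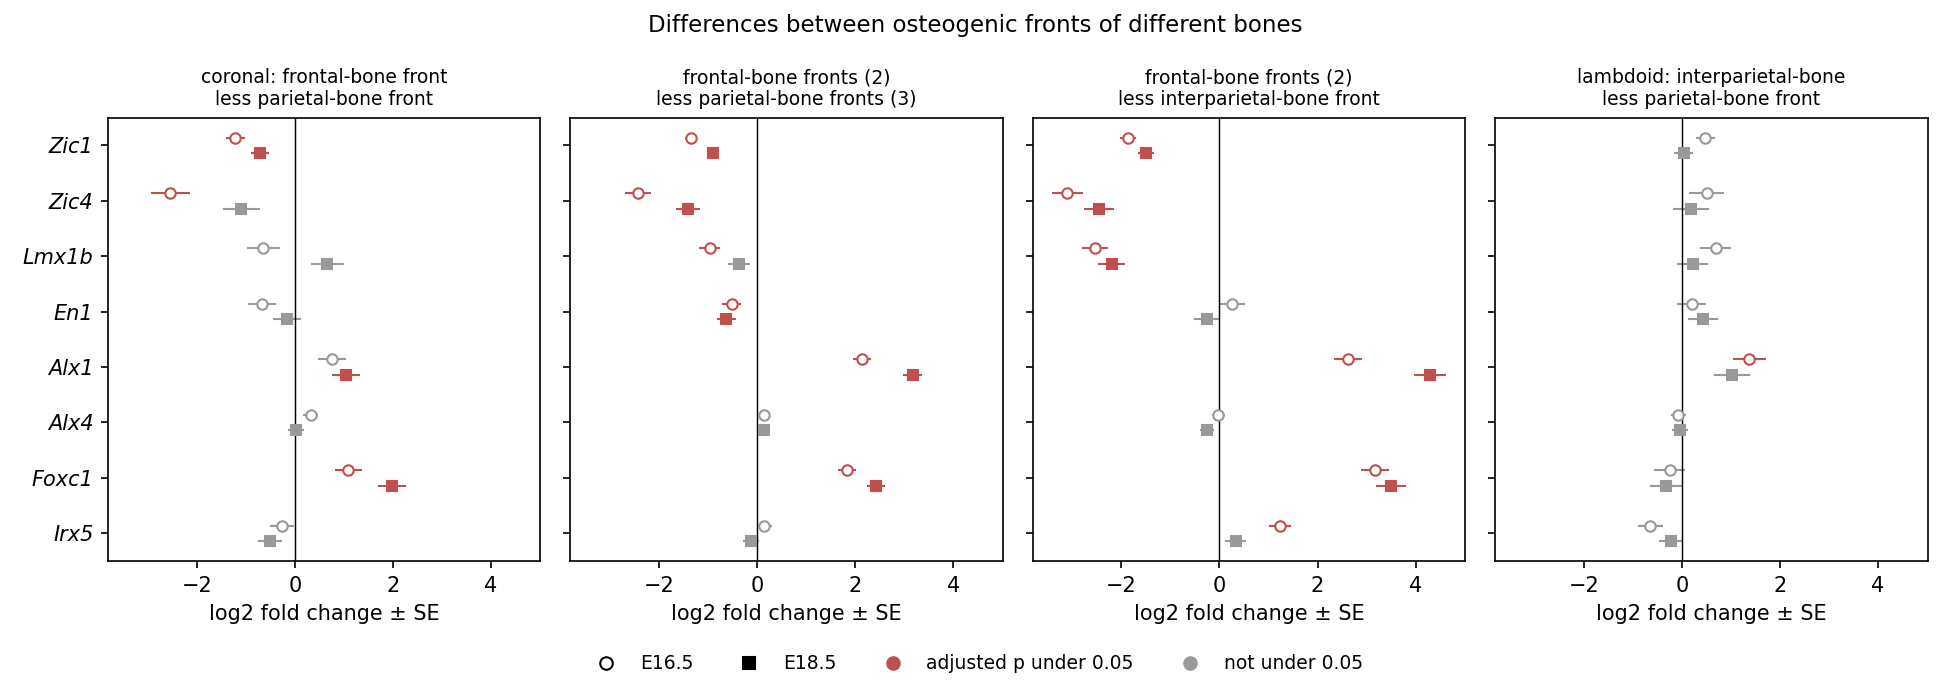
Log2 fold change of 8 members (horizontal axis, bars are ± 1 SE) in the front comparisons, with open circles for E16.5, filled squares for E18.5, red for an adjusted p under 0.05 and grey for the rest. Alx1 and Foxc1 lie on the FR side of 0 and Zic1 and Zic4 on the other side wherever FR fronts are compared; Tfap2b is left out because its fold has no bound where a group is at 0.

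Related genes moved in several of the same comparisons. Of 16 paralogues of the members, 10 were expressed well enough to be tested. In the coronal FR front, 3 were higher and 2 lower at E16.5, and 2 were higher and 3 lower at E18.5. Beside these 5 of 10 at each age, 14.4% and 5.44% of all genes passed. Tfap2a, the AP-2 partner of Tfap2b, was at 0 in PA at both ages. In FR it was counted in 1 of 5 libraries at E16.5 and 4 of 5 at E18.5, with means of 1.07 and 0.37 CPM, so the E16.5 call (adjusted p = 0.000611) rests on a single library. Lmx1a, the paralogue of Lmx1b, was lower in FR at both ages, at 0.24 against 5.23 CPM and 2.96 against 12.59 CPM (1.1e-10 and 0.00014). Zic2, at 12.20 against 6.06 CPM at E16.5 (0.0116), was higher in FR, the direction opposite to that of Zic1 and Zic4. In the lambdoid IP less PA comparison none of the 10 passed at either age with edgeR.

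Of 34 other transcription factors of the cranial mesenchyme, 30 were tested. In coronal FR against PA, 4 were higher and 1 lower at E16.5, beside 14.4% of all genes called, and 4 were higher and 5 lower at E18.5, beside 5.44%. Among the higher at E18.5 were Msx1 (1.67, adjusted p = 2.38e-05) and Tbx18 (5.05, 0.00308), and among the lower were the osteoblast regulators Runx2 (-0.46, 0.0234) and Dlx5 (-0.63, 0.0128). Across sutures, Six2 was higher in FR than in PA fronts by 2.26 at E16.5 and 2.56 at E18.5 (3.7e-19 and 5.14e-22). Gsc was lower by -2.89 and -2.75 (1.78e-06 and 2.75e-06).

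The SM was then set against each bordering front, in 12 comparisons, in which the coronal and the lambdoid SM libraries each enter against both of their fronts. Of the 108 member tests, 57 passed, beside 3.46% to 35.6% of all genes in the single comparisons. Zic1 was higher in SM in 9 of 12, Zic4 and Foxc1 in 8, Alx1 in 8, Lmx1b in 6, En1 and Tfap2b in 4 and Alx4 in 2, while Irx5 was lower in 5 and higher in none. En1, Alx1 and Tfap2b were each lower in SM in 1 comparison. Some of these calls were lost in 3 or more settings. They include Irx5 in lambdoid SM less PA at E16.5 (adjusted p of up to 0.179) and in coronal SM less PA at E18.5 (up to 0.0884), En1 in lambdoid SM less IP (up to 0.179) and sagittal SM less PA at E16.5 (up to 0.0741), and Alx1 in lambdoid SM less PA at E16.5 (up to 0.36) and E18.5 (up to 0.467). The median log2 fold change over the 12 was 1.66 for Zic4, 1.40 for Zic1, 1.38 for Foxc1, 1.08 for Alx1, 0.83 for Lmx1b, 0.53 for En1, 0.22 for Alx4 and -0.43 for Irx5, against 0.01 for all genes.

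In the sagittal suture, 7 of 9 members passed at E16.5 and 8 of 9 at E18.5, beside 17.7% and 25.3% of all genes. Zic1 at E18.5 ran from 281.75 to 338.97 CPM in the SM and from 68.28 to 96.25 CPM in the PA front (log2 fold change 1.96 ± 0.19, adjusted p = 1.38e-14). Foxc1 held 24.21, 28.02, 30.28, 31.26 and 31.55 CPM in the SM and 6.27, 7.97, 8.04, 8.66 and 12.91 CPM in the front (1.73 ± 0.29, adjusted p = 7.04e-07). Irx5 went the other way, with 4.94, 5.88, 6.94, 7.08 and 8.83 CPM in the SM and 12.1, 15.27, 16, 17.85 and 26.56 CPM in the front (-1.38 ± 0.26, adjusted p = 9.43e-06). All 3 pairs of ranges were apart.

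In the sagittal suture at E18.5 Alx4, which passed in only 1 other SM comparison, was also higher in the SM (0.70 ± 0.16, adjusted p = 0.000348). Tfap2b was low there but higher in SM at both ages, at 0.7 to 4.72 CPM against 0 to 0.18 CPM at E16.5 and 0.59 to 7.34 CPM against 0 to 0.36 CPM at E18.5, without overlap (adjusted p = 0.000443 and 0.00026).

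In the lambdoid suture the SM was higher in Zic1, Zic4 and Foxc1 than either front at both ages. Against IP, 4 of 9 members passed at each age, beside 11.2% and 19.6% of all genes, and against PA 7 and 6 of 9, beside 23.1% and 24.6%. Zic4 at E18.5 was at 181.82 ± 7.69 CPM in SM, 56.17 CPM in IP and 49.05 CPM in PA (1.69 ± 0.37 and 1.89 ± 0.37; adjusted p = 0.000227 and 3.37e-05). Irx5 at E18.5 held 3.87 to 8.94 CPM in SM, below every library of IP (11.75 to 18.16 CPM) and of PA (12.2 to 30.34 CPM), at adjusted p of 0.000147 and 5.78e-06. En1 was higher in SM than PA at both ages (1.09 ± 0.30 and 1.12 ± 0.30; 0.00379 and 0.00274), calls that limma-voom did not make (0.0525 and 0.0637), and nor did it make the E16.5 calls of Foxc1 (0.104 against IP and 0.163 against PA).

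In the frontal suture 3 of 9 members passed at each age, beside 7.91% and 11.1% of all genes. Zic1 and Lmx1b were higher in SM at both ages and Zic4 at E16.5. Lmx1b held 48.8, 50.35, 54, 63.35 and 71.5 CPM in the E16.5 SM and 16.58, 22.07, 22.88, 23.85 and 27.57 CPM in the front (1.35 ± 0.33, adjusted p = 0.00222). At E18.5 it differed by 1.15 ± 0.33 (adjusted p = 0.0108), which was lost without replicates 4 or 5 (0.098 and 0.0885). Alx1 was lower in the E18.5 SM, the only SM comparison in which it was, with 16.88 to 25.26 CPM against 28.7 to 51.9 CPM in FR (-0.83 ± 0.28, adjusted p = 0.04). The ranges were apart, but the call was lost with the embryo as a block (-0.81, adjusted p = 0.0522), without FR replicate 5 (-0.69, 0.17) and in 7 other settings.

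Tfap2b in the E16.5 frontal SM held 68.49, 71.75, 74.55, 76.77 and 112.51 CPM, above every FR library of that suture and age. Its log2 fold change of 1.39 ± 0.66 did not pass (adjusted p = 0.246). The test uses a common estimate of spread for each gene over all 20 groups, and Tfap2b was at or near 0 in most of them. The part of this in the missed threshold was not tested.

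In the coronal suture Alx1 was higher in SM than in both fronts at both ages. The E18.5 SM held 76.76, 88.07, 91.74, 112 and 124.2 CPM, against FR libraries of at most 61.56 CPM and PA libraries of at most 29.18 CPM (1.06 ± 0.28 and 2.10 ± 0.29; adjusted p = 0.0117 and 8.13e-09). At E16.5 the SM held 41.92, 55.13, 68.15, 80.18 and 81.28 CPM, above all FR libraries (11.41 to 35.73 CPM) and all PA libraries (5.29 to 25.93 CPM), at adjusted p of 0.000158 and 7.85e-09. Against FR, the E18.5 call was lost without replicate 2 (0.118). Against FR, 5 of 9 members passed at E16.5 and 1 of 9 at E18.5, beside 30.3% and 3.46% of all genes, and against PA 5 and 4 of 9, beside 35.6% and 18%.

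Foxc1 was higher in the coronal SM than in PA at both ages (1.61 ± 0.28 and 1.80 ± 0.29; adjusted p = 3.14e-06 and 6.91e-07) and not shown to differ from FR (0.51 and -0.17; 0.151 and 0.874). Tfap2b was lower in SM than in FR at E16.5, with 0, 0.04, 0.06, 0.91 and 2.58 CPM in SM against at least 2.66 CPM in FR (-4.11 ± 0.78, adjusted p = 2.6e-05), and the value was -5.77 without replicate 3 and -3.36 without replicate 5. Its SM libraries held 81 reads at E16.5 and 133 at E18.5, against none in PA, and replicate 3 held 62 and 113 of these reads. Without replicate 3 the E18.5 SM less PA call was lost (adjusted p = 0.0561).

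Zic1 and Zic4 were higher in the coronal SM than in FR at E16.5 (1.64 ± 0.19 and 2.12 ± 0.40; adjusted p = 6.6e-11 and 1.97e-05). When 1 replicate was left out, the Zic4 value ran from 1.71 to 3.37, the latter without replicate 1. At E18.5 neither passed against FR (0.34 and 0.27; 0.454 and 0.852) and neither passed against PA at either age. The E18.5 libraries of Zic1 overlapped throughout, at 18.46 to 30.2 CPM in SM. Lmx1b passed against FR at E16.5 (0.87 ± 0.34, adjusted p = 0.0407) through replicate 2, at 26.35 CPM in the SM against 2.52 to 8.59 CPM in the other 4. Without that replicate the value was -0.09 (adjusted p = 0.865), and with the embryo as a block it was 0.40 (0.462). En1 was lower in SM than in PA at E16.5 (-0.72 ± 0.29, adjusted p = 0.0447), with -0.68 and adjusted p = 0.0616 under the block. Fitted on the coronal E16.5 libraries by themselves, the calls against FR of Alx1, Tfap2b, Zic4 and Lmx1b were lost (adjusted p = 0.0743, 0.0941, 0.232 and 0.651), as were those against PA of Alx4 and En1 (0.255 and 0.486).

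**Figure D3:**
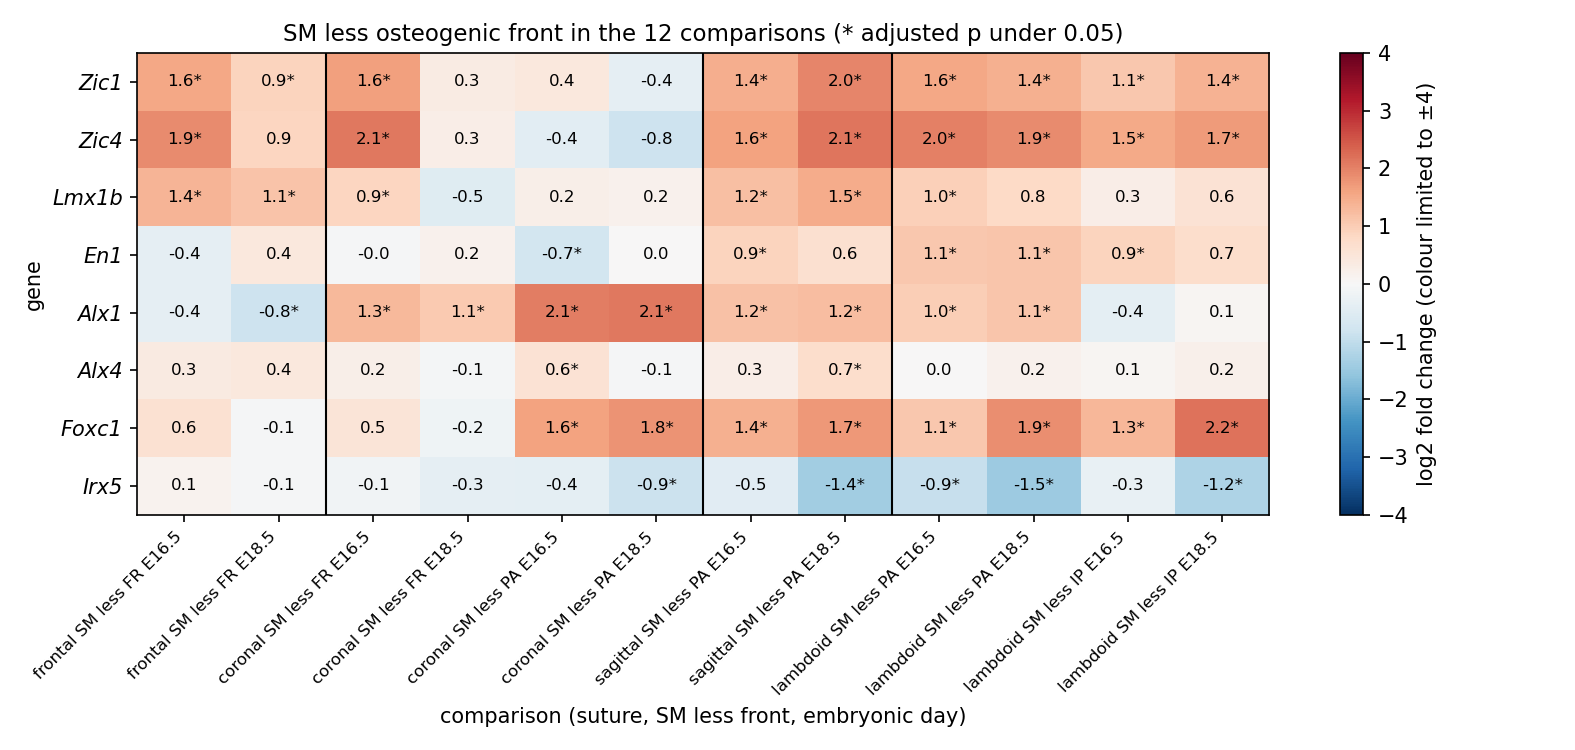
Log2 fold change of SM less OF for 8 members (rows) in the 12 comparisons (columns), as colour, limited to ±4, with a star where the adjusted p is under 0.05. Stars for higher in SM stand in 9 of 12 comparisons for Zic1 and in 8 for Zic4, Foxc1 and Alx1, and stars for lower in 5 for Irx5; Tfap2b is left out because its fold has no bound where a group is at 0.

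The mean difference between SM and fronts in the coronal suture differed from the mean over the other sutures for 5 of 9 members, beside 20.8% of all genes. The mean of the 4 coronal SM less front differences, minus the mean of the other 8, was 1.26 ± 0.21 for Alx1 (adjusted p = 2.14e-06). It was -0.90 ± 0.14 for Zic1 (3.98e-07), -1.41 ± 0.28 for Zic4 (6.95e-05), -0.81 ± 0.22 for En1 (0.00343) and -0.78 ± 0.25 for Lmx1b (0.015). The Lmx1b call was lost with library totals (adjusted p = 0.0838), with the second coronal libraries (0.0864) and without replicates 1, 4 or 5. Single comparisons did not all follow these means. En1 differed by -0.37 and 0.42 in the frontal suture, beside -0.72 to 0.18 in the coronal suture. At E16.5, Alx1 differed by 1.18 in the sagittal suture and by 1.31 in coronal SM less FR. Zic1 differed there by 1.44 and 1.64.

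Markers of other cells moved with region as well. In the coronal suture the 9 osteoblast markers summed to 6939.7 to 11471 CPM in the SM at E16.5, below all FR and PA libraries (28121 CPM or more), and to 7986 to 11471 CPM at E18.5, below 14941 CPM or more in the fronts. In the lambdoid suture they were also lower in SM than in any front library of the same age, while in the sagittal suture at E16.5 SM (26834 to 30269 CPM) and PA (23992 to 33129 CPM) overlapped. At E18.5 the sagittal SM libraries (27521 to 37078 CPM) were all below the PA libraries (44827 to 61755 CPM). The 5 ectocranial mesenchyme markers were higher in the sagittal SM (2751 to 4168 CPM over both ages) than in its PA fronts (970.3 to 1642 CPM). They were also higher in the lambdoid SM, at 1859.9 to 2210.9 CPM against at most 1304.3 CPM in its fronts at E16.5 and 2200.7 to 3813.7 against at most 1559.6 CPM at E18.5, and in the E16.5 coronal SM than in FR (1090.5 to 2186.4 against 574.6 to 883.1 CPM), and overlapped in the other comparisons. The 5 suture mesenchyme markers were higher in the coronal SM than in any front library of that suture and age, at 3984.3 to 4787.7 against at most 2481.6 CPM at E16.5 and 2552.4 to 3185.8 against at most 2080.2 CPM at E18.5. The 6 chondrocyte markers summed to 241.5 to 327.0 CPM in the E18.5 coronal SM, 135.4 to 183.1 CPM in FR and 82.9 to 149.7 CPM in PA. They also separated SM from the fronts in the sagittal suture, at 307.9 to 464.1 against 79.8 to 110.4 CPM over both ages, in the lambdoid suture, at 255.3 to 507.4 against 96.4 to 230.6 CPM, and in the frontal suture, at 299.9 to 439.1 against 115.6 to 190.5 CPM at E16.5 and 189 to 317.3 against 98.2 to 182.1 CPM at E18.5. The 5 pericyte markers summed to 262.3 to 511.1 CPM in the E18.5 coronal SM and 66.9 to 160.7 CPM in PA, and the 6 endothelial markers to 236.0 to 285.8 and 54.1 to 95.4 CPM, while in FR both overlapped SM. The 7 proliferation markers were lower in the sagittal SM than in PA, at 1096 to 1253 against 1979 to 2412 CPM at E16.5 and 558.4 to 767 against 1424 to 2002 CPM at E18.5. They were also lower in the frontal SM, at 845.7 to 965.7 against 1210.7 to 1733.9 CPM at E16.5 and 471.1 to 627.9 against 764.8 to 1921.4 CPM at E18.5, and in the lambdoid SM, at 821.5 to 1215.8 against at least 1250.5 CPM and 331.1 to 984.9 against at least 1033.6 CPM, while in the coronal suture SM and fronts overlapped. The 5 mast cell markers were higher in the frontal E18.5 SM (295.3 to 452.4 CPM) than in FR (47.8 to 257.7 CPM), and in the lambdoid SM (202.4 to 419.5 CPM over both ages) than in its fronts (26.4 to 160.5 CPM). The frontal E18.5 SM was also above FR in the 8 macrophage markers (323.6 to 426.5 against 164.9 to 247.7 CPM). The same held for the 6 dura mater markers (108.4 to 172.1 against 51.2 to 101.1 CPM). The part of all these markers in the differences of the members was not tested.

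With age, 4 of 9 members fell in the mean over the 10 regions, beside 24.8% of all genes called in either direction, though not in each region: Zic1 had a mean of 43.14 CPM at E16.5 and 53.12 CPM at E18.5 in the frontal FR front, and Lmx1b 39.76 and 46.20 CPM in the lambdoid PA front. Foxc1 fell by 0.67 on the log2 scale (SE 0.09, adjusted p = 4.23e-09), Lmx1b fell by 0.34 (0.10, 0.00964), Zic1 fell by 0.20 (0.06, 0.00653) and Alx4 fell by 0.17 (0.05, 0.0077). The Alx4 call was lost with library totals (adjusted p = 0.0609), with the second coronal libraries in place of the first (0.0579) and without replicate 4 (0.165). The ages came from different litters. Without replicate 4, Zic1 and Foxc1 remained past the threshold and Lmx1b did not (-0.30, adjusted p = 0.0704), and without replicate 3 Zic1 did not (-0.15, adjusted p = 0.106).

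The 16 complete-suture libraries held the 4 sutures at E18.5 in 4 control sets, named by the letters used for the sutures (C, IF, L and S). Their labels give replicate 1 to each, so they are values without a test. Zic1 was highest in the sagittal suture in 4 of 4 sets, at a mean of 194.06 CPM (167.7 to 210.25), and lowest in the coronal suture in 4 of 4, at 38.94 CPM (34.9 to 42.84). Zic4 ran from 110.65 CPM in sagittal through 50.50 CPM in lambdoid and 28.37 CPM in frontal to 14.38 CPM in coronal sutures, an order held in all 4 sets. Lmx1b was highest in sagittal (44.64 CPM) and lowest in coronal sutures (9.59 CPM) in 4 of 4. In the frontal and lambdoid controls Lmx1b was at 23.50 and 19.02 CPM, with frontal higher in 3 of 4 sets. The lambdoid controls held at most 22.99 CPM, below every captured E18.5 lambdoid library, of which the lowest held 35.94 CPM. The captured E18.5 means were 46.20 to 79.99 CPM in the lambdoid and 20.91 and 46.58 CPM in the frontal suture. Zic1 was at 88.76 CPM in the frontal and 87.20 CPM in the lambdoid controls, with frontal higher in 3 of 4 sets.

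Tfap2b was between 82.54 and 109.21 CPM in the 4 frontal-suture controls and at most 3.93 CPM in the 12 others. Alx1 was highest in the frontal suture, at 33.73 CPM (25.81 to 38.10), above the coronal suture at 29.45 CPM (23.55 to 33.81) in 4 of 4 sets, and lowest in the lambdoid suture at 4.62 CPM (3.82 to 5.37). Foxc1 was highest in the frontal suture (53.77 CPM) and lowest in the coronal suture (22.12 CPM) in 4 of 4. Its level differed with the set, and the frontal controls held 67.36 and 69.39 CPM in sets C and S. In sets IF and L they held 41.09 and 37.23 CPM. In the lambdoid controls Foxc1 was at 31.04 CPM, with a lowest value of 20.76 CPM, above every captured lambdoid library, of which the highest held 15.22 CPM.

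Irx5 was highest in the coronal suture in 4 of 4 sets, at 18.48 CPM against 11.32, 10.74 and 8.01 CPM in the frontal, lambdoid and sagittal sutures. With library totals in place of TMM this held in 3 of 4, since in set S Irx5 was at 11.36 CPM in the coronal and 11.64 CPM in the frontal suture. The complete-suture mean CPM of Irx5 in the frontal suture was then 11.95, and the complete-suture mean CPM of Zic4 in the lambdoid suture 53.05. In the captured regions of the same age the coronal means were 17.58, 22.43 and 32.01 CPM, and those of the other sutures 6.71 to 18.51 CPM. En1 was above the frontal and lambdoid sutures in both the coronal (8.22 CPM) and the sagittal suture (7.28 CPM) in 4 of 4 sets. Each of these 2 sutures was above the other in 2 of 4 sets, so the sagittal lead of the captured regions was not seen. The sagittal controls held at most 10.76 CPM, below every captured sagittal E18.5 library, of which the lowest held 13.39 CPM. Alx4 was between 75.76 and 89.44 CPM in the mean of each suture.

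**Figure D4:**
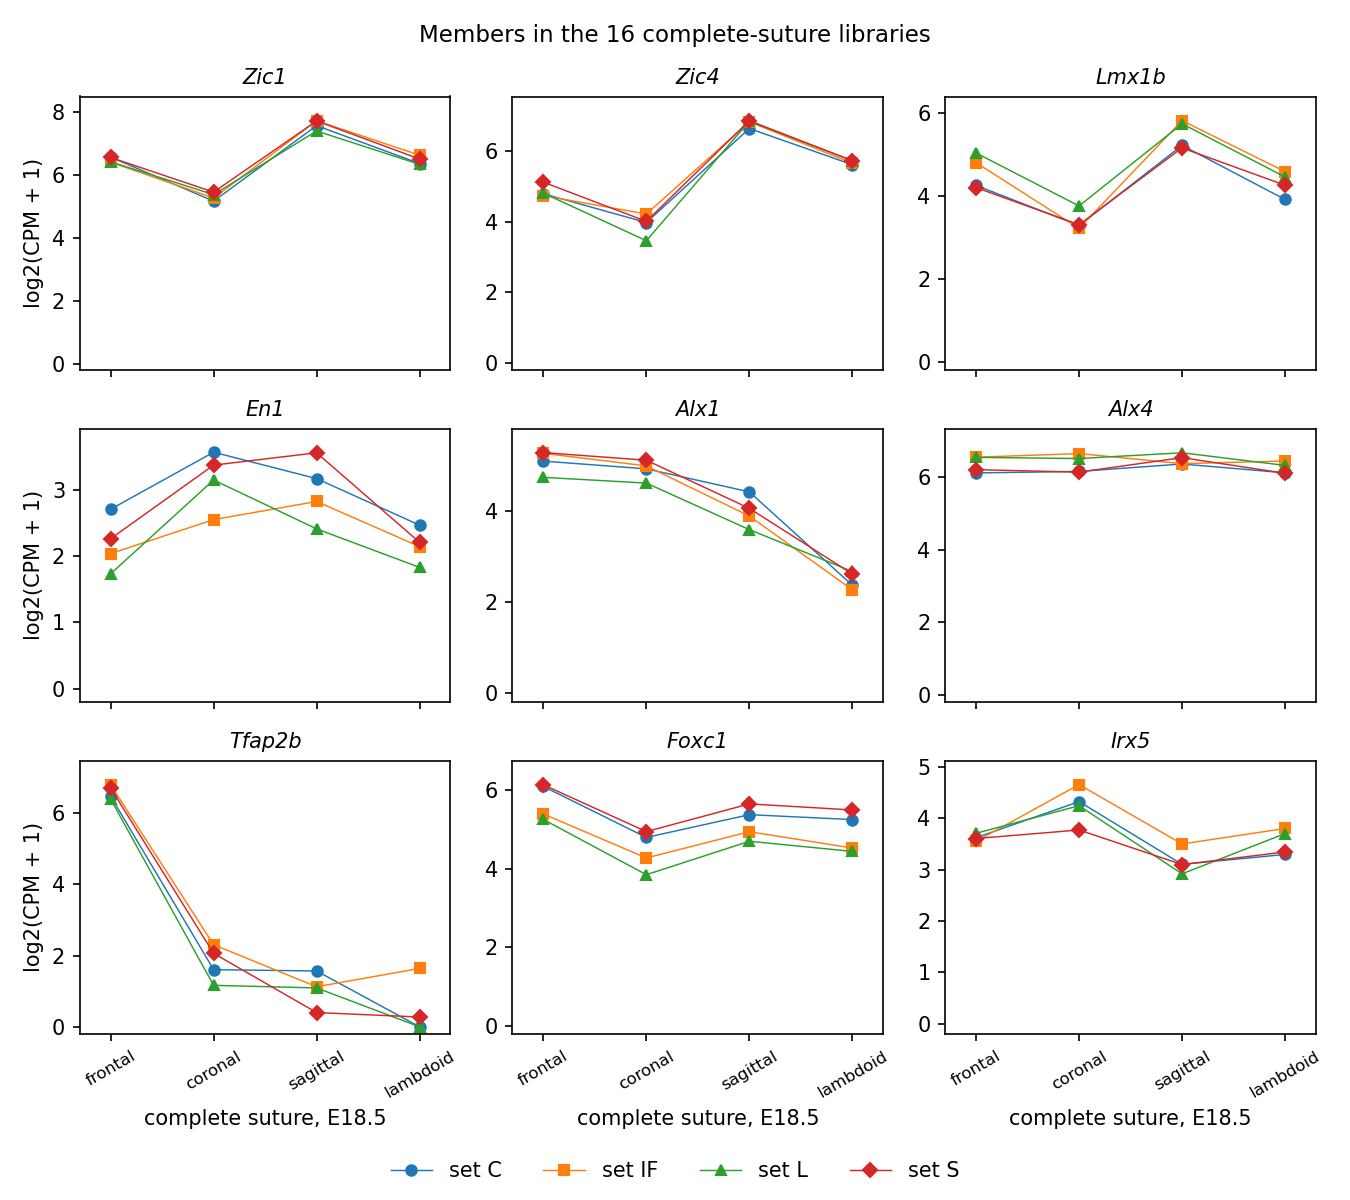
Level of each member, as log2(CPM + 1), in the complete-suture controls at E18.5, with the 4 sutures along the horizontal axis and 1 line for each of the 4 control sets. Zic4 falls from sagittal through lambdoid and frontal to coronal sutures in every set, and Tfap2b is at least 82.54 CPM in the frontal suture and at most 3.93 CPM in the others.

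The second coronal libraries, made for 9 samples at each age, changed the level of Irx5. At E16.5 it held 36.87 to 61.24 CPM in the first libraries of these samples and 6.11 to 18.93 CPM in the second, lower in 9 of 9. At E18.5 the means were 23.49 and 16.80 CPM, lower in 7 of 9. Irx5 levels in the coronal E16.5 groups therefore depend on which library is read. The order of the fronts stayed for Foxc1, with second-library means of 20.15 CPM in FR and 6.82 CPM in PA at E16.5 and 19.19 and 4.80 CPM at E18.5, and for Zic1, with 17.05 and 35.87 CPM at E16.5 and 17.92 and 35.74 CPM at E18.5. Against the first-library means of all 5 samples, it turned at E16.5 for Lmx1b (7.47 and 4.91 CPM) and Irx5 (16.93 and 14.67 CPM). At E18.5 it turned for Alx4 (78.21 and 87.48 CPM). These second-library means cover 3 samples each, and none of these members passed the test of the fronts.

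Across the 20 group means of log2 CPM, Zic1 was closest to Zic4 among all genes tested (r = 0.976), and Zic4 to Zic1. The genes share the libraries behind these points, and a correlation across groups is given here as a description. Next to Zic1 came Atp9a (0.954) and Cntn5 (0.947), and next to Zic4 came Gm29771 (0.95) and Fbf1 (0.939). Lmx1b was nearest to C130021I20Rik (0.970), and among the members to Zic4 (0.897) and Zic1 (0.886). Tfap2b was near Cmbl (0.932) and its paralogue Tfap2a (0.924), and Foxc1 near Angptl4 (0.893) and Phldb2 (0.891). En1 was nearest to Pole4 (0.918), Alx4 to Heph (0.831) and Irx5 to Dph6 (0.957). Alx1 was nearest to Zfp970 (0.940) and Gm17028 (0.935), and Gm17028 shares 243 exon bases with Alx1, so its reads cannot be fully assigned. Irx5 ran against Zic1 (r = -0.800), Zic4 (-0.823) and Lmx1b (-0.813). These values include the coronal E16.5 groups, where the level of Irx5 depends on which library is read. They are not given without those groups. Leaving out the 3 coronal E16.5 groups kept Zic1 and Zic4 at 0.983 and lowered Irx5 and Dph6 to 0.914.

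Single cells of the coronal suture placed the members in different cells. At E18.5 the 2 libraries kept 2412 and 1577 cells, with median depths of 18476 and 7131 unique molecules (UMIs) a cell, and at E16.5 they kept 466 and 337 cells, at 2501 and 2121 UMIs. Age and the chemistry used at each age cannot be told apart. Clusters were formed without the member genes and named only from their markers, and values are CPM of the UMIs of the cluster's cells (CPM of UMIs) with an exact 95% Poisson interval that covers counting error only. Macrophage-like cells, a blood-derived type that should lack these genes, are given as the background for Zic1, Zic4, Alx1 and Irx5 at E18.5. No such background is given for the other members or for E16.5. Cells are not replicates and each age has 2 libraries, so no test was made.

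Zic1 was highest in ectocranial mesenchyme-like cells, led by Sfrp2, Igfbp3 and Col8a1, at 133.58 (127.2 to 140.19) and 147.76 (126.26 to 171.86) CPM of UMIs in the 2 E18.5 libraries. In that cluster 400 of 463 and 70 of 128 cells held a UMI of Zic1. Macrophage-like cells were at 7.89 and 5.88 CPM of UMIs, with a UMI in 35 of 276 and 6 of 73 cells, at median depths of 17845 UMIs for the first cluster and 17225 for the second. At E16.5 the ectocranial mesenchyme-like cells again held 175.73 and 165.95 CPM of UMIs.

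Zic4 and En1 were high in the same cells at E18.5. Zic4 was at 27.98 (25.11 to 31.09) and 26.38 (17.80 to 37.67) there and at 1.85 and 0 in macrophage-like cells, in which 0 of 73 cells held a UMI in the second library. En1 was at 54.50 and 73.00 CPM of UMIs there, at 42.99 and 63.17 in a cluster led by Gpx3, Mmp13 and Lum, and at 4.98 and 8.56 in a cluster led by Atp1b1 and Itih5. Lmx1b was at 14.68 (12.62 to 16.98) and 19.35 (12.13 to 29.29) in the ectocranial mesenchyme-like cells and at 12.30 (9.72 to 15.35) and 14.15 (5.69 to 29.15) in a cluster led by Gpha2, Nppc and Scara5, and these intervals overlapped.

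Alx1 and Foxc1 marked other cells. Alx1 was highest in chondrocyte-like cells, at 143.77 (128.4 to 160.47) and 140.46 (64.23 to 266.65), followed by the Gpha2, Nppc and Scara5 cluster at 91.77 and 92.97. It was lower in osteoblast-like cells, at 12.72 (8.76 to 17.86) and 15.42 (11.25 to 20.64), against 5.37 and 3.92 in macrophage-like cells. The second library held 11 chondrocyte-like cells.

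Foxc1 was highest in the cluster led by Atp1b1 and Itih5, at 134.05 (123.7 to 145.04) and 151.31 (113.34 to 197.91), and in the Gpha2, Nppc and Scara5 cluster, at 104.38 (96.58 to 112.64) and 115.20 (87.25 to 149.25). In ectocranial mesenchyme-like cells, where Zic1 was highest, Foxc1 was at 10.71 and 8.79. At E16.5 the chondrocyte-like cluster had only 12 and 38 cells. Alx1 was at 181.42 (72.94 to 373.79) and 174.42 (92.87 to 298.26) CPM of UMIs there, from 7 and 13 UMIs, and Foxc1 at 181.42 (72.94 to 373.79) and 120.75 (55.22 to 229.22), from 7 and 9 UMIs.

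Irx5 was highest in osteoblast-like cells led by Ibsp and Bglap, at 181.15 (165.14 to 198.29) and 84.66 (74.43 to 95.91) CPM of UMIs, and these intervals of the 2 libraries were apart. Chondrocyte-like cells held 16.28 and 0, and the cluster led by Atp1b1 held 12.13 (9.16 to 15.75) and 8.56, near the 14.61 (11.70 to 18.02) and 3.92 of macrophage-like cells. Alx4 was spread over the mesenchymal clusters, at 23.21 and 22.32 in the Gpx3, Mmp13 and Lum cluster and at 28.14 and 30.78 in ectocranial mesenchyme-like cells, and lower in osteoblast-like cells, at 8.09 and 7.88.

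Tfap2b was barely counted: 44 UMIs in 25 cells of the first E18.5 library, 6 UMIs in 6 cells of the second, and 1 and 0 UMIs in the E16.5 libraries. The cluster led by Gpx3, Mmp13 and Lum held 21 of the 44, in 10 of its 357 cells, or 2.99 (1.85 to 4.57) CPM of UMIs. At E16.5 the 0 of 337 cells of the second library allow an upper limit of 4.39 CPM of UMIs.

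**Figure D5:**
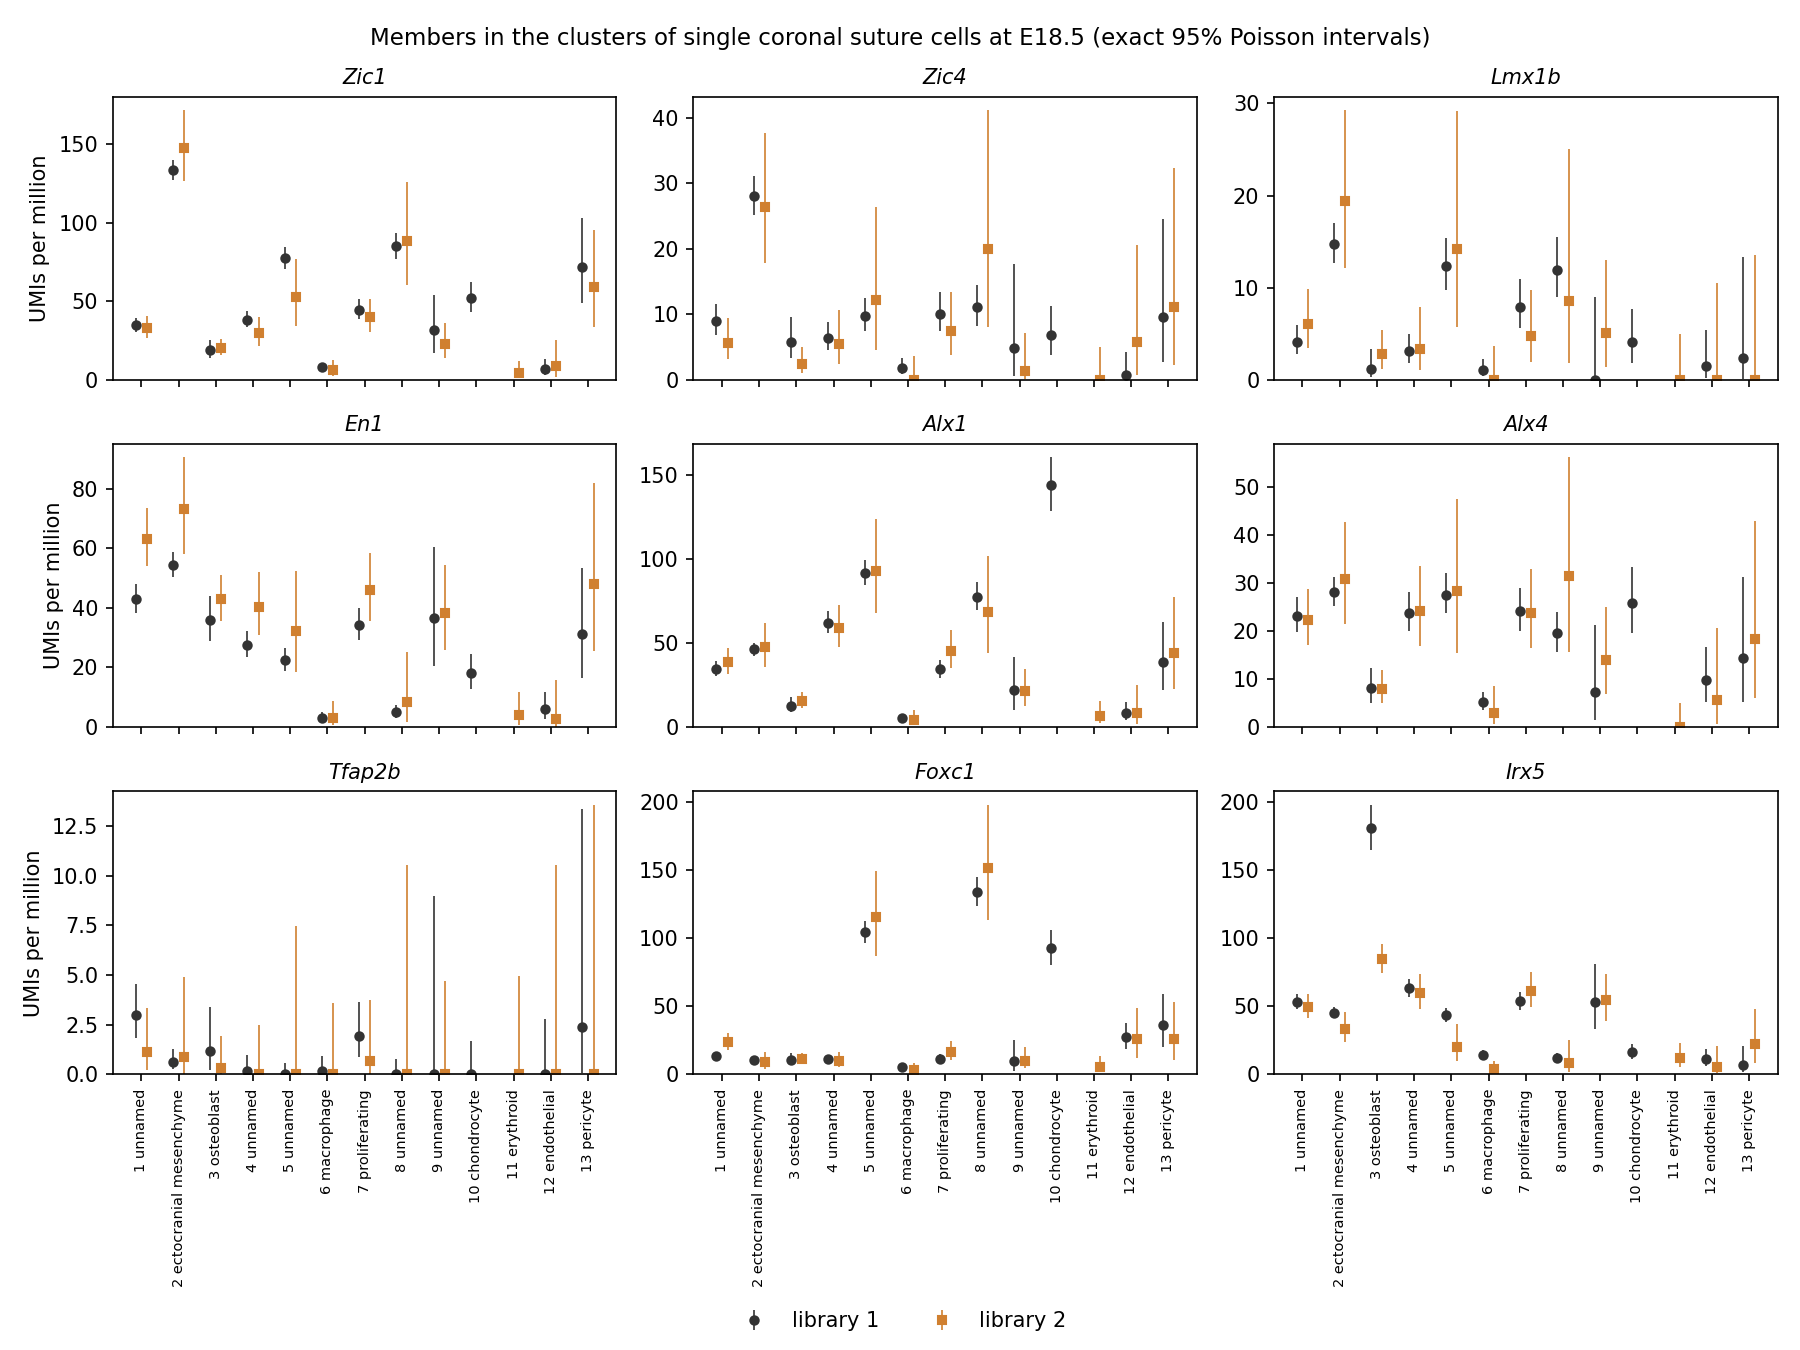
CPM of UMIs of each member in the E18.5 coronal clusters, by library, with exact 95% Poisson intervals; libraries with fewer than 20 cells in a cluster are not drawn. Zic1, Zic4 and En1 are highest in the ectocranial mesenchyme-like cluster, Irx5 in the osteoblast-like cluster, Alx1 in the chondrocyte-like cluster and Foxc1 in the clusters led by Atp1b1 and by Gpha2.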

How the data were processed

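The authors aligned the reads of the laser-captured and complete-suture libraries with STAR 2.5.3a after trimming with cutadapt and counted them with featureCounts 1.6.4 on GENCODE gene models of mm10, and deposited a table of raw counts per library. Pairs were counted without strand. For the single cells the authors deposited matrices of counts, UMIs per gene and barcode, made with Cell Ranger. A table of the authors' own log2 ratios between regions was also deposited and was not used. Gene IDs were matched to symbols for 55394 of 55487 genes. Of the 138 samples, 100 first libraries entered the tests.

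CPM was computed from the counts with TMM factors. The main test was edgeR's quasi-likelihood test (edgeR 4.0.16, R 4.3.3), two-sided, with 1 mean per group over all 20 groups, on genes that reached 1 CPM in more than 10% of those libraries. P-values were adjusted by Benjamini-Hochberg over all 19768 genes within each of 24 comparisons, with a threshold of 0.05. Replicates were separate embryos. RPKM divides CPM by exon length. On simulated data for coronal FR less PA at E18.5 (19768 genes), 35 of 100 genes changed 2-fold and 65 of 100 changed 4-fold were called, with 4 false calls. Results were recomputed, where a setting applied to them, with DESeq2 1.42.0 and with limma-voom (limma 3.58.1), with other scalings and filters, with the second coronal libraries, without each replicate or the coronal suture, with each suture and age by itself and with the embryo as a block. Leaving out FR replicate 5 of the frontal suture was chosen after seeing the data.

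A litter label and a replicate number tie the regions of an embryo together, so the numbers pair the samples. Deviations from the group means had a median correlation of 0.05 over 80 pairs of libraries of 1 embryo (-0.163 to 0.273) and -0.013 over 320 pairs of other embryos.

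Single cells with over 800 genes and within 3 median absolute deviations of their library were kept: 466 of 1530 and 337 of 1482 barcodes at E16.5, 2412 of 2628 and 1577 of 1999 at E18.5. Libraries of an age shared 1 and 5 barcodes. Each age was clustered by itself with scanpy 1.11.5 (2000 variable genes, members left out, 13 components, 100 neighbours, resolution 0.8). A cluster was named when at least 2 markers of the class were among its 10 leading genes, a rule made stricter after seeing the clusters. No doublet caller was run.

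All 9 members are reported; the paralogue and cranial lists were named by smallest adjusted p, and some of their genes are not reported here. The members and lists were chosen with earlier results of these data known.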

Additional observations from a re-analysis of the deposited data

Results flagged for a closer look

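In 22 of 174 groups of 5 libraries tested, the highest or lowest library stood apart from the other 4 by Dixon's criterion, which chance meets in about 1 group in 20.

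Foxc1 in the frontal E18.5 FR library of replicate 5 was at 86.14 CPM against a median of 28.06 CPM, and En1 in the same library at 7.19 against 4.51 CPM. Alx4 was low in the coronal E16.5 FR library of replicate 5, at 47.35 against 109.72 CPM. Zic4 in the coronal E16.5 FR library of replicate 1 was at 10.59 against 1.76 CPM, and that embryo was the one whose FR level was above its PA level.

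Lmx1b in the coronal SM was high in replicate 2 at both ages, at 26.35 against 7.06 CPM at E16.5 and 10.35 against 4.14 CPM at E18.5; these are different embryos. Lmx1b was also low in the frontal E18.5 SM of replicate 3 (31.35 against 48.54 CPM) and high in the sagittal E18.5 PA front of replicate 1 (22.76 against 17.18 CPM). In that sagittal library Zic1 was high as well (96.25 against 73.07 CPM). Zic1 was low in the lambdoid E18.5 PA front of replicate 4 (63.61 against 91.44 CPM).

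Replicate 5 of the lambdoid E16.5 libraries stood apart in Zic4 in PA (59.97 against 33.62 CPM), in En1 in IP (4.0 against 6.83 CPM) and in Alx4 in IP (121.84 against 98.8 CPM). En1 was high in the sagittal E16.5 SM of replicate 1 (39.66 against 25.1 CPM) and the sagittal E18.5 PA front of replicate 2 (28.48 against 16.55 CPM). Alx1 was high in the coronal E18.5 FR front of replicate 4 (61.56 against 44.54 CPM), and Irx5 low in the coronal E18.5 PA front of replicate 1 (24.38 against 33.49 CPM).

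Tfap2b, a gene at or near 0 in most groups, stood apart in 5. It was at 6.08 against 2.34 CPM in the coronal E18.5 FR front of replicate 1, at 4.51 against 0.28 CPM in the coronal E18.5 SM of replicate 3, and at 112.51 against 74.55 CPM in the frontal E16.5 SM of replicate 2. In the lambdoid SM single libraries held 1.49 CPM against a median of 0, replicate 4 at E16.5 and replicate 5 at E18.5.

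The mean SM less front difference of the coronal suture was different from the mean over the other sutures, on the log2 scale, for Alx1 (1.26), Zic1 (-0.9), Zic4 (-1.41), Lmx1b (-0.78) and En1 (-0.81).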

How the results depend on the processing

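Of 101 member differences past the threshold, 66 stayed past it in the same direction under every alternative run. Over all alternatives, 1469 of the recomputed values kept their direction and side of the threshold, 107 lost the threshold, and 1 turned, Lmx1b in coronal SM less FR at E16.5, which was -0.09 without replicate 2 and ran up to 1.31 without replicate 1. The number of member calls in coronal FR against PA was 8 over both ages and 3 with each suture and age fitted by itself, and the cause was not tested. In lambdoid IP against PA it was 1, and it was 3 with each suture and age by itself, 0 with limma-voom and 0 to 0 when a replicate was left out. For E18.5 against E16.5 it was 4, and 2 to 5 when a replicate was left out, with the 2 without replicate 4. For the age difference of coronal FR less PA it was 0, and 1 with first and second libraries added, 1 with library totals and 1 with the second libraries in place of the first, and 0 to 2 when a replicate was left out, with Lmx1b and Zic4 called without replicate 1; the cause was not tested. SM against OFs gave 57 calls and 49 to 63 under the alternatives. With the embryo as a replicate block it gave 54, and the calls that changed were Lmx1b (coronal SM less FR, E16.5), En1 (coronal SM less PA, E16.5) and Alx1 (frontal SM less FR, E18.5); no other call changed with the block. Of the single-cell values, 37 moved by more than their interval under other limits on cells or clusterings and 1016 did not. Counts over all genes moved by more than 1.5 times in several comparisons. With each suture and age by itself, coronal FR less PA went from 2852 to 0 genes at E16.5 (edgeR, 1139 at an unadjusted p under 0.05) and from 1076 to 712 at E18.5, coronal SM less FR at E16.5 from 5995 to 602, coronal SM less PA at E16.5 from 7045 to 1032, frontal SM less FR at E16.5 from 1564 to 5143, lambdoid SM less IP and less PA at E16.5 from 2213 to 5219 and from 4562 to 8151, sagittal SM less PA from 3506 to 8873 at E16.5 and from 5007 to 8441 at E18.5, and lambdoid IP less PA from 96 to 908 at E16.5 and from 2 to 9 at E18.5. With the second coronal libraries in place of the first, coronal FR less PA at E16.5 had 677 genes and its age difference 437 (1158 before), coronal SM less FR at E16.5 had 3006, FR less PA fronts at E16.5 went from 5702 to 3160, and FR less IP fronts from 5199 to 2300 at E16.5 and from 3744 to 2339 at E18.5; with both libraries added, coronal FR less PA at E16.5 had 1383 genes, its age difference 532 and lambdoid IP less PA 179 and 4. Without the coronal suture, FR less PA fronts at E18.5 went from 6462 to 10000 and FR less IP fronts to 7181. With limma-voom, coronal FR less PA and SM less FR at E18.5 had 1912 and 1059 genes (683 before in the latter), frontal SM less FR at E18.5 had 1423 (2198 before), and lambdoid IP less PA 46 and 1; DESeq2 gave 216 and 9 for the last and 5 for its age difference (0 before). With the block, coronal FR less PA at E16.5 had 1797 genes, its age difference 680 and lambdoid IP less PA at E16.5 194. Without replicate 3, coronal FR less PA had 1845 genes at E16.5 and 700 at E18.5, where it had 589 without replicate 1 and 662 without replicate 4; coronal SM less FR at E18.5 had 325 without replicate 2, frontal SM less FR at E18.5 had 1434 and 1447 without replicates 4 and 5, FR less IP fronts at E18.5 had 2439 without replicate 5, lambdoid SM less IP at E16.5 had 1409 and 1421 without replicates 1 and 4, and lambdoid IP less PA had 16 to 205 at E16.5 and as few as 0 at E18.5. With library totals the median log2 fold change of all genes ran from -0.391 to 0.307 over the comparisons. Tfap2b could not be given a bounded fold where a group was at 0. In coronal FR less PA at E18.5 the self-test called 65 of 100 genes changed 4-fold and 35 of 100 changed 2-fold, so a member that missed the threshold may still differ. The self-test changed genes in no other group and gave each gene the same spread in every group. It therefore does not cover the lambdoid depths or the lower agreement among coronal E16.5 libraries.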

Other observations

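The other transcription factors of the cranial mesenchyme also differed between SM and OFs. In the sagittal suture at E18.5, 12 of 30 tested were higher in SM and 6 lower, beside 25.3% of all genes called, among the higher Six2, Msx2, Prrx1 and Twist1, and among the lower Runx2 and Sp7, which drive osteoblast differentiation. In the coronal suture against FR at E18.5, 2 were higher in SM (Six2 and Msx2) and 3 lower, among them Runx2 and Sp7, beside 3.46% of all genes. With age, 15 of the 30 passed the test, beside 24.8% of all genes, and 14 of them were lower at E18.5.

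Six2 was higher in FR than in IP fronts at E18.5, with a log2 fold change of 4.71 ± 0.31 (SE, adjusted p = 2.27e-22, edgeR's quasi-likelihood test).

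In the second coronal libraries, Alx1 in the E18.5 SM of replicate 1 was at 278.96 CPM, against 112 CPM in the first library of that sample. Across the E18.5 samples with both libraries, En1 had a mean of 7.75 CPM in the first and 14.08 CPM in the second, with 1 of 9 lower in the second, and at E16.5 Zic4 had 15.25 CPM in the first and 6.66 CPM in the second, lower in the second in 7 of 9.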
